A study of Mus musculus with 32 samples.

Results

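The eye-moving muscles of pigmented C57BL/6 mice (extraocular muscles, EOM) were set against a limb muscle of the same strain that lifts the foot (tibialis anterior, TA). The libraries were taken by label from the deposited read count table, 4 C57BL/6 EOM and 4 C57BL/6 TA, which makes 8 of the 32 libraries of the series. The others came from oculomotor and abducens neuron samples or from albino B6(CG)Tyr(c-2J)/J mice and were not used here. Total RNA of whole tissue was measured, and no treatment is labelled. The labels give neither sex, age nor collection time, and do not say how many animals or eye muscles went into a library. They do not call the replicates separate animals either, so a p reflects the spread among these libraries, which may be technical. RNA was isolated with one of a pair of kits, for fibrous or for lipid tissue, and the kit of a given sample is not labelled, so its part in any difference was not tested.

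Eye muscles work almost without pause, from the fastest eye jumps to steady gaze, and mix singly and multiply innervated fibres in an outer orbital and an inner global layer. They form from head mesoderm and keep embryonic and slow-tonic myosins in adult life, and they are known for being spared in several muscular dystrophies and in motor neuron disease. Limb muscles form from the somites under Pax3 and Lbx1, in a field patterned by Hox genes. The TA of the mouse is built almost wholly of fast, glycolytic fibres of types IIB and IIX.

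Library totals ran from 18544334 to 24446789 counts in EOM and from 23095793 to 27965207 counts in TA. Levels are given as CPM, counts brought to 1 common library size, after scaling by the trimmed mean of M values (TMM), which sets the libraries to a scale on which the typical gene balances. The muscles' markers, given here as a check of the labels with no test, matched the labels in all 8 libraries. Myh13, the superfast myosin heavy chain of eye muscle, read 3965, 3932, 3308 and 3548 CPM in EOM 1 to 4 and 40.8, 43.9, 30.4 and 42.1 CPM in TA 1 to 4. Myh15, an ancient heavy chain known from eye muscle, read 1629, 1603, 1581 and 1306 CPM in EOM and 0.202, 0.532, 0.553 and 0.850 CPM in TA. Both were high in every EOM library and near the floor or low in every TA library. Hoxc10, a homeobox gene of the hindlimb level, had 2 counts in the 4 EOM libraries together and 125, 122, 115 and 108 CPM in TA. Smyd2, a lysine methyltransferase found at the sarcomere, read 9.52, 9.03, 8.56 and 8.33 CPM in EOM and 484, 450.4, 506 and 442 CPM in TA. Tbx15, a factor of fast fibres, averaged 789.9 ± 43.8 CPM in EOM and 718 ± 15.97 CPM in TA (SD, n = 4 each). The Y-linked Ddx3y was read in all 8 libraries, at 99.1 ± 22.8 CPM in EOM and 110.0 ± 16.5 CPM in TA, while Xist averaged 0.0370 CPM in EOM and 0.0252 CPM in TA.

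Most of the transcriptome differed between the muscles. An edgeR quasi-likelihood F test with Benjamini-Hochberg adjustment called 11126 of 14408 genes tested at an adjusted p under 0.05 (77.2%), of which 6089 (42.3% of those tested) were higher and 5037 (35.0%) lower in EOM. Of these 5277 (36.6%) changed at least 2-fold, 4014 (27.9%) higher and 1263 (8.77%) lower, and in 10458 genes (72.6%) the 2 groups did not overlap. A bare call therefore sets no gene apart here, and sizes are given throughout. Each count of list members called below is to be read beside these shares, 42.3% higher and 35.0% lower. The first principal component of log2 CPM held 89.4% of the variance and separated the muscles, with all EOM libraries between −109 and −93.5 and all TA libraries between 95.3 and 106. Log2 fold changes, written log2FC, are EOM over TA, so that a negative one means lower in EOM, and are followed by ± their standard error where it is given. Over all genes tested the median log2FC was 0.10.

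TA spent a far larger part of its RNA on few genes. Its 10 most abundant genes held 20.1 ± 0.471% of the counts, against 9.32 ± 0.201% for the 10 most abundant in EOM (exact two-sided permutation test, p = 0.0286, the smallest that 4 against 4 libraries can give). For the 50 most abundant genes the shares were 22.3% in EOM and 38.3% in TA. It took 573 ± 21.9 genes to hold 50% of the counts in EOM and 168 ± 6.18 in TA. Genes at a CPM of at least 1 of the deposited total numbered 13844 ± 277 in EOM and 11613 ± 74.2 in TA (exact permutation p = 0.0286). TMM enlarged the library sizes of EOM relative to those of TA by a factor of 1.59, so that on plain library totals each log2 fold change would be about 0.67 higher, and the calls would split into 10493 higher and 1594 lower, 86.8% higher in place of 54.7%. Groups whose direction turns on that choice are named as such below.

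**Figure D1:**
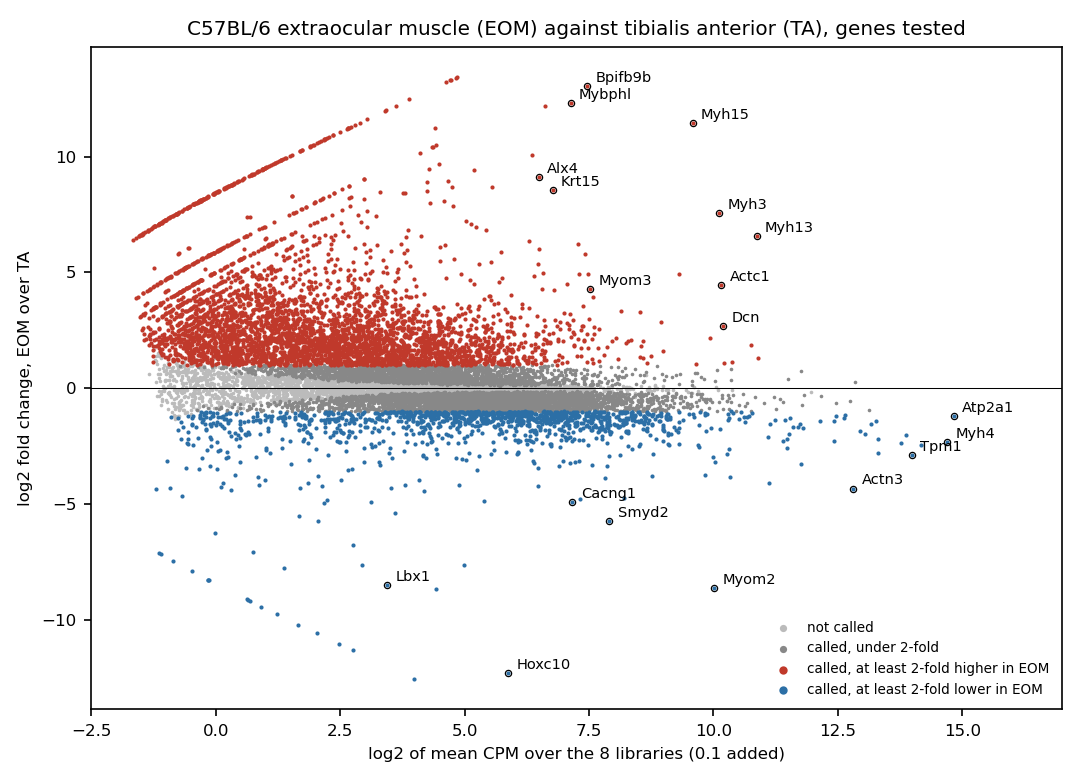
Each point is 1 of the 14408 genes tested, with the log2 of its mean CPM over the 8 libraries on the x axis and its log2 fold change, EOM over TA, on the y axis. Red and blue points were called at 2-fold or more higher (4014) or lower (1263) in EOM, grey points were called under 2-fold or not called, and the slanted lines are genes with no or few counts in one muscle, whose fitted fold depends on the prior count. The most abundant genes, at the right, lie below 0.

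The myosin heavy chains, the motors of the sarcomere, differed in kind between the muscles. TA ran almost wholly on Myh4, the IIB chain, and Myh1, the IIX chain, while EOM held the superfast, embryonic, IIA and slow chains and Myh15 beside them. Of the 10 sarcomeric heavy chain genes 8 were higher and 2 lower in EOM; Myh13 and Myh15, 2 of the 8, are markers given with the choice of these libraries, and Myh15 passed the filter on low counts through EOM alone. Myh4 fell to 9020.1, 8830.3, 8119 and 9180.4 CPM in EOM, against 39109, 41834, 49754 and 45669 CPM in TA (log2FC −2.33 ± 0.08, adjusted p = 1.69e-10). Every EOM library lay below every TA library. Myh3, the embryonic chain, read 2505, 2296, 2119 and 1929 CPM in EOM and 9.75, 11.4, 9.01 and 16.4 CPM in TA (log2FC 7.56 ± 0.18, adjusted p = 1.45e-11), so that a chain usually lost after birth in limb muscle was high in each eye muscle library. Myh2, the IIA chain of fatigue-resistant fast fibres, was higher in EOM (log2FC 1.15 ± 0.17). Myh7, the slow chain of type I fibres and of the heart ventricle, averaged 336 ± 56.1 CPM in EOM and 6.14 ± 2.95 CPM in TA (log2FC 5.78 ± 0.25). Myh7b, the slow-tonic chain, was higher (log2FC 2.14 ± 0.30), at 18.7 CPM in EOM and 4.20 CPM in TA. The perinatal chain Myh8 differed little, at 682 CPM in EOM and 593 CPM in TA (log2FC 0.20 ± 0.06, adjusted p = 0.0118), and was not called without EOM 1, EOM 2 or TA 1 (log2FC 0.14, 0.16 and 0.15).

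The sequences before the start sites of the heavy chain genes that set the muscles apart are shown so that the regulatory stretches of genes with opposite patterns can be compared. They are the 250 bases before the start in RefSeq, build GRCm38.p6, + strand, with each E-box, the motif CANNTG that myogenic factors of the MyoD family can bind, in capitals.
Myh13, chr11:67326853-67327102: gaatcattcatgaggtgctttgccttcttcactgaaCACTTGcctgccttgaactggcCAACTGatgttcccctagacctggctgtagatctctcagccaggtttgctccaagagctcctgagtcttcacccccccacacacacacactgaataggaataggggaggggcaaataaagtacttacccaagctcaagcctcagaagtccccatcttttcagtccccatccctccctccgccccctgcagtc
Myh15, chr16:49057150-49057399: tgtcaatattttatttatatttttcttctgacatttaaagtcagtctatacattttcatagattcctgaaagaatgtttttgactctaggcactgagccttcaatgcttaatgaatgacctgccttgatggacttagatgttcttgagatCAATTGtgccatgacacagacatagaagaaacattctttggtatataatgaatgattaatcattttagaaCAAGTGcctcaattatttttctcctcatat
Myh3, chr11:67078050-67078299: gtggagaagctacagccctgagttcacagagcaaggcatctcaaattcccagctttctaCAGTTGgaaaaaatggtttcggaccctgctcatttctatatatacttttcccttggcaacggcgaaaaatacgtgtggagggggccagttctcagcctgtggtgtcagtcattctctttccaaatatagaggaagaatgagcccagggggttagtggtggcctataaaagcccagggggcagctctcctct
Myh4, chr11:67237562-67237811: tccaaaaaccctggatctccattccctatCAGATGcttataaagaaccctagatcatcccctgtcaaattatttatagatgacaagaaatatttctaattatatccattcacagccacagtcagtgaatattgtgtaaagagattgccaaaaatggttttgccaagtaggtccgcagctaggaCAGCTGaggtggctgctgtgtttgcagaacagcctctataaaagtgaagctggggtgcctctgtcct
The Myh13, Myh15 and Myh4 windows hold 2 E-boxes each and the Myh3 window 1, and E-boxes are common: 57.9% of the windows of the 10877 genes tested that have one in RefSeq hold at least 1 on either strand. TATAAA was counted on either strand, and 6.85% of all windows hold it. It lies 29 bases before the start of Myh3 and occurs 3 times in the Myh4 window. In the Myh15 window it occurs once, 237 bases before the start, on the opposite strand, and reads TTTATA in the sequence shown. The Myh4 occurrence 179 bases before the start is on the opposite strand as well. The Myh4 window also holds 1 MEF2 site and 1 serum response element, found in 1.81% and 1.21% of windows, which the Myh13, Myh15 and Myh3 windows do not show. Genes at least 2-fold higher in EOM had a median of 11 CG dinucleotides in the window, those at least 2-fold lower 15 and the other genes 17.

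As shares of all heavy chain counts per kilobase of exon, Myh4 made up 37.4 ± 1.28% in EOM and 83.2 ± 2.74% in TA (SD, n = 4 each). Myh1 made up 22.6 ± 0.947% in EOM and 14.7 ± 2.43% in TA, so that the IIX share was larger in EOM although its CPM was lower (5597 CPM in EOM and 8162 CPM in TA, log2FC −0.54 ± 0.07). On library totals that difference was not called (log2FC 0.13). Myh2 held 6.53 ± 0.472% in EOM and 1.32 ± 0.397% in TA, and Myh3 9.35 ± 0.800% in EOM and 0.0219 ± 0.00599% in TA. Each of these 4 shares differed between the muscles (exact two-sided permutation tests, p = 0.0286, the smallest possible, also after Benjamini-Hochberg adjustment over the 10 genes). Described without a test, Myh13 held 15.3 ± 0.677% and Myh15 6.19 ± 0.632% of the pool in EOM, against 0.0730 ± 0.0147% and 0.000944 ± 0.000444% in TA. Within TA the mix varied most between Myh4 and Myh1, with TA 3 at 86.8% Myh4 and TA 1 at 80.7%. Myh1, Myh2, Myh3, Myh4, Myh8 and Myh13 lie in 1 cluster of near-identical genes on chromosome 11, and reads that fit several of them may have been split or dropped in the authors' counting, so their levels are uncertain to that extent.

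**Figure D2:**
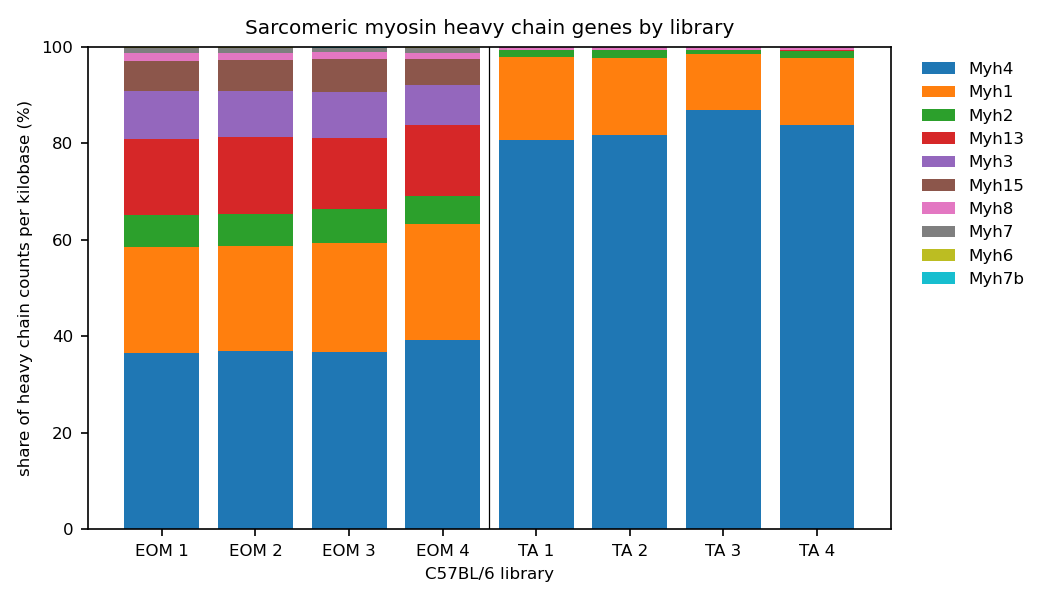
Bars show, for each library, the share of sarcomeric heavy chain counts per kilobase of exon that each of 10 genes held, in percent, with the 4 EOM libraries left and the 4 TA libraries right of the line. In the EOM bars Myh4 reaches 36.6% to 39.3% and Myh13, Myh3 and Myh15 are visible, and in the TA bars Myh4 and Myh1 fill almost the whole height.

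The thin filament and light chains differed as well. Genes of slow and cardiac fibres were mostly higher in EOM: 17 of 20 were higher and 3 lower, with a median log2 fold change of 2.96, beside 0.10 over all genes tested. Tnni1, the slow troponin I, averaged 305 ± 48.7 CPM in EOM and 4.02 ± 1.30 CPM in TA (log2FC 6.23 ± 0.20, adjusted p = 8.93e-11). The slow troponins T and C, Tnnt1 and Tnnc1, were higher (log2FC 4.92 and 4.86). Tpm3, the slow tropomyosin, read 1357, 1194, 1139.6 and 1189 CPM in EOM and 41.8, 44.1, 27.4 and 45.5 CPM in TA (log2FC 4.94 ± 0.15). Actc1, the actin of heart muscle that limb muscle carries before birth, read 2251, 2235, 1956 and 2264 CPM in EOM and 109.8, 109, 105 and 75.2 CPM in TA (log2FC 4.45 ± 0.12), and no library of either muscle came near the other group. Myl2 and Myl6b, light chains of slow fibres, averaged 254 and 178 CPM in EOM, against 11.2 and 8.97 CPM in TA. Exceptions were the stretch-linked genes Ankrd2 (log2FC −1.57) and Ankrd1 (log2FC −0.97) and the light chain Myl3 (log2FC −0.66, with overlap between the groups). On library totals neither Ankrd1 (log2FC −0.29) nor Myl3 (log2FC 0.01) was called, and the call of Myl3 was lost without EOM 3, TA 1 or TA 2 (log2FC −0.58, −0.53 and −0.49). Tnni3, the heart troponin I, passed the filter through EOM alone.

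Fast fibre genes were lower in EOM in 18 of 20 cases, with a median of −1.76. Actn3, the alpha-actinin of the Z-disc in fast glycolytic fibres, read 682, 668, 591 and 774 CPM in EOM and 14139, 12358, 14016 and 14246 CPM in TA (log2FC −4.33 ± 0.09, adjusted p = 5.85e-12). Tpm1 fell to 3921, 3762, 3715 and 4065 CPM in EOM, against 29776, 28378, 30596 and 24997 CPM in TA (log2FC −2.88 ± 0.07). Pvalb, the calcium buffer that speeds relaxation, averaged 2546 ± 127 CPM in EOM and 17711 ± 1278 CPM in TA (log2FC −2.80 ± 0.07). Each EOM library held less of this mRNA than each TA library. Mybpc2, the fast myosin-binding protein C, was lower (log2FC −3.27), as were the fast troponins Tnnt3, Tnnc2 and Tnni2 (log2FC −2.04, −1.96 and −1.86). Tbx15 was the one member called higher (log2FC 0.14 ± 0.05), a call that was lost when any library other than EOM 3 was left out (log2FC 0.06 without EOM 4). Eya1, a cofactor in fast fibres, was not called (log2FC −0.14 ± 0.08, adjusted p = 0.124).

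In the scaffold of the sarcomere the muscles used different members of the same families. Myom2, the M-protein that cross-links thick filaments of fast fibres at the M-band, read 7.11, 5.11, 3.77 and 5.07 CPM in EOM and 2065, 1978, 2187 and 2043 CPM in TA (log2FC −8.61 ± 0.16, adjusted p = 2.39e-12). Its relative Myom3, the myomesin of slow and intermediate fibres, read 374, 371, 305 and 350.5 CPM in EOM and 18.4, 22.5, 8.79 and 21.6 CPM in TA (log2FC 4.29 ± 0.22). Myom3 was thus high where Myom2 was low in all 8 libraries, and of the pair's counts per kilobase Myom3 held 99.0 ± 0.191% in EOM and 1.26 ± 0.473% in TA. Over the M-band, Z-disc and scaffold list 6 of 26 genes were higher and 19 lower, with a median of −0.83; on library totals 8 were higher and 13 lower. Synm, which links desmin filaments to the membrane, was lower (log2FC −2.98), as were Tmod4, a cap of thin filaments (log2FC −2.29), and Des, desmin itself (log2FC −1.37). Higher in EOM were Mybph (log2FC 1.82), the chaperone Cryab (log2FC 1.07) and the thin filament nucleator Lmod2 (log2FC 0.93). Mybphl, a myosin-binding protein known from heart atria, read 299, 258, 254 and 307 CPM in EOM and between 0 and 0.111 CPM in TA, among the largest differences of any gene.

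Calcium release and uptake genes were mostly lower in EOM, with 21 of 27 lower and 6 higher and a median of −1.20 (17 lower and 9 higher on library totals). Cacng1, the gamma subunit of the voltage sensor in the transverse tubule, read 8.90, 11.0, 7.88 and 9.26 CPM in EOM and 284, 266, 282 and 278 CPM in TA (log2FC −4.91 ± 0.09, adjusted p = 2.39e-12). The pore subunit Cacna1s averaged 889 CPM in EOM and 1667 CPM in TA (log2FC −0.91), a far smaller difference than that of its gamma subunit. Ryr1, the calcium release channel, was lower (log2FC −1.55), as were Jph2, which ties the tubule to the calcium store (log2FC −2.52), and the kinase Camk2a (log2FC −2.83). The 6 members higher in EOM were Sln, Pln, Atp2a2, Casq2, Ryr3 and Stim1. Sln, the small inhibitor of the calcium pump, averaged 154 ± 12.5 CPM in EOM and 1.86 ± 0.108 CPM in TA (log2FC 6.37 ± 0.09). Pln, the related inhibitor of the slow pump, averaged 184 ± 15.4 CPM in EOM and 5.91 ± 0.841 CPM in TA (log2FC 4.96 ± 0.10). The slow pump Atp2a2 and the slow store buffer Casq2 were higher (log2FC 2.55 and 2.11), as was Stim1, the sensor of the calcium store (log2FC 0.95). Ryr3, another release channel, averaged 4.32 CPM in EOM and 0.690 CPM in TA and passed the filter through EOM alone. The fast pump Atp2a1 was lower in EOM, at 17685 ± 1635 CPM in EOM and 40506 ± 1685 CPM in TA (log2FC −1.20 ± 0.07).

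Genes of the neuromuscular junction stood out in the other direction. Of 21 tested, 16 were higher and 3 lower in EOM, with a median of 1.33. Chrna1, the alpha subunit of the muscle acetylcholine receptor, read 188, 172, 156 and 162 CPM in EOM and 22.0, 22.7, 21.6 and 22.8 CPM in TA (log2FC 2.93 ± 0.07, adjusted p = 1.19e-11). Chrnd was higher (log2FC 2.68 ± 0.12), as was Chrne, the subunit of the adult receptor (log2FC 1.61 ± 0.08). Chrng, the fetal subunit that limb muscle replaces after birth, read 1.30, 1.87, 1.11 and 1.19 CPM in EOM and 0.101, 0.0967, 0 and 0.0895 CPM in TA. It reached the filter through EOM alone and stayed far below Chrne, of whose pair it held 1.08 ± 0.376% per kilobase in EOM and 0.172 ± 0.115% in TA. Colq, the collagen tail that anchors acetylcholinesterase, was higher (log2FC 1.95), as were the agrin receptor Lrp4 (log2FC 1.46) and the neuregulin receptor Erbb3, which Schwann cells carry too (log2FC 2.56). Musk, the kinase that starts receptor clustering, was called higher by a small margin (log2FC 0.25 ± 0.10, adjusted p = 0.0385), a call that was lost when any library other than EOM 3 or TA 4 was left out (log2FC 0.19 without EOM 1). Its partners in clustering, Rapsn (log2FC −0.01 ± 0.08, adjusted p = 0.913) and Dok7 (log2FC 0.19 ± 0.08, adjusted p = 0.0606), were not called, although on library totals both were called higher (log2FC 0.66 and 0.86). Scn4a, the sodium channel that fires the fibre, was lower (log2FC −1.29).

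Transcription factors that mark where a muscle forms differed in level. Alx4, a homeobox gene of the face and skull, read 179.9, 186, 163 and 187 CPM in EOM and 0, 0.483, 0.663 and 0.179 CPM in TA. It passed the filter through EOM alone, so no test of it is given. Of the 22 craniofacial factors listed, 16 were tested and 8 of those passed the filter through EOM alone, so their count is no measure of the list. Among those read in both muscles Foxc1 (log2FC 2.94 ± 0.18), a factor of the tissue around the eye, was higher in EOM. Alx1 was read in EOM alone, at least 64.2-fold higher against a floor of 3 counts over the TA group, and Pitx1, known for shaping the hindlimb, averaged 3.56 CPM in EOM and 0.205 CPM in TA. Tbx1, a factor of branchial arch muscle, went the other way, with 1.92, 4.34, 2.66 and 3.67 CPM in EOM and 61.8, 53.5, 51.9 and 56.1 CPM in TA (log2FC −4.17 ± 0.18). Meis2 and Irx5, from the list of limb and trunk factors, averaged 5.19 and 5.94 CPM in EOM, against 0.245 and 0.395 CPM in TA. Both passed the filter through EOM alone, so no test of them is given.

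The Hox genes were nearly silent in EOM. Of 39 in the 4 clusters 28 had no count in any EOM library and 7 had none in any TA library; 19 were tested, 16 of which passed the filter through TA alone. Hoxa10 had no count in EOM, against 30.7, 32.3, 29.5 and 32.5 CPM in TA, at least 1155-fold lower against a floor of 3 counts over the EOM group. Hoxa9 was at least 491-fold lower and Hoxc9 at least 403-fold. A few genes of the D cluster were exceptions: Hoxd8 averaged 3.81 ± 0.348 CPM in EOM and 5.67 ± 0.312 CPM in TA (log2FC −0.57 ± 0.14, against 0.10 on library totals, where it was not called), and Hoxd4 was not called (0.645 and 0.727 CPM, adjusted p = 0.772). Factors that guide somite cells into the limb were lower too. Lbx1, needed for that migration, read 0.130, 0, 0 and 0.0741 CPM in EOM and 22.6, 23.2, 17.7 and 22.6 CPM in TA. Sim1 read 0, 0.0852, 0.135 and 0.0741 CPM in EOM and 12.8, 19.6, 15.8 and 12.4 CPM in TA, and Pax3 averaged 0.241 CPM in EOM and 1.12 CPM in TA. In whole tissue a lower level can mean fewer cells that carry a transcript or less of it per cell, and these cannot be told apart here or in any group below.

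**Figure D3:**
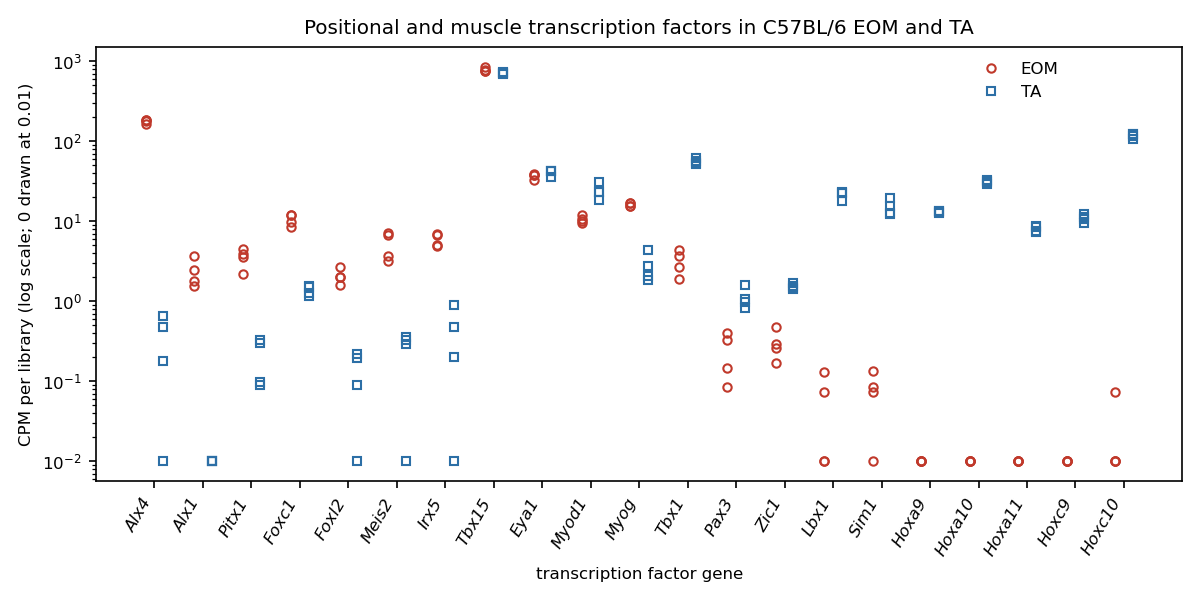
CPM per library on a log axis for 21 transcription factor genes, with 4 EOM circles left of 4 TA squares for each gene and values of 0 drawn at 0.01. From Alx4 to Irx5 and for Myog the EOM circles lie above the TA squares, for Tbx15 and Eya1 the groups are close, and for Myod1 and all genes from Tbx1 to Hoxc10 the TA squares lie above.

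Among genes of myogenesis and satellite cells, the stem cells of muscle, 12 of 23 were higher and 8 lower (16 and 4 on library totals). Of all genes tested 42.3% were higher and 35.0% lower. In this list 3 passed the filter through EOM alone and 1 through TA alone. Myog, the factor of myoblast differentiation, read 16.7, 16.8, 15.7 and 15.4 CPM in EOM and 2.73, 1.84, 4.42 and 2.06 CPM in TA (log2FC 2.56 ± 0.21, adjusted p = 3.51e-07). Myf5 averaged 4.64 ± 0.490 CPM in EOM and 1.07 ± 0.431 CPM in TA (log2FC 2.11 ± 0.28). Pax7, the marker of satellite cells, was higher (log2FC 0.78 ± 0.23), but not called when all 16 C57BL/6 libraries of the series entered 1 fit (adjusted p = 0.198). Myod1, which limb muscle holds mainly in fast fibres, was lower, at 10.6 CPM in EOM and 24.0 CPM in TA (log2FC −1.19 ± 0.14). Tmem8c, which encodes the fusion protein myomaker, read 4.20, 3.07, 3.07 and 4.67 CPM in EOM and 0 in TA, at least 101-fold higher.

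Most genes of sugar use were lower in EOM. Of 33 genes of glycolysis and glycogen 23 were lower and 9 higher, with a median of −1.20 (21 and 11 on library totals). Pygm, the phosphorylase that opens the muscle glycogen store, averaged 1873 ± 134 CPM in EOM and 9024 ± 342 CPM in TA (log2FC −2.27 ± 0.06). Its activating kinase subunit Phka1 was lower (log2FC −3.17), as were the aldolase Aldoa (log2FC −2.38), the fructose bisphosphatase Fbp2 (log2FC −3.01) and Pfkfb3, which sets glycolytic rate (log2FC −3.15). Among the genes higher in EOM were forms that heart, brain or other tissues use: Hk1 (log2FC 2.45), Pfkp (log2FC 2.36), Pygb (log2FC 2.03) and Ldhb (log2FC 1.82). Gbe1, the glycogen branching enzyme of muscle and other tissues, was higher as well (log2FC 0.56). Ldhb, the heart lactate dehydrogenase, read 604, 588, 541 and 605 CPM in EOM and 181, 192, 119 and 172 CPM in TA. Its muscle partner Ldha averaged 816 ± 64.6 CPM in EOM and 4912 ± 362 CPM in TA (log2FC −2.59 ± 0.08). Gapdh and Eno1, which have many near-identical copies, cannot be counted with certainty and are not described. Lower too were Prkag3, the AMP kinase subunit of glycolytic fibres (11.3 against 306 CPM, log2FC −4.76), and Ampd1, the muscle AMP deaminase (log2FC −3.77 ± 0.07). Ckm, the muscle creatine kinase, was lower (log2FC −2.20 ± 0.06), while the mitochondrial Ckmt2 averaged 4315 CPM in EOM and 2599.6 CPM in TA (log2FC 0.73) and the brain form Ckb was higher (log2FC 2.85).

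Shares within pairs of related genes need no scaling between libraries, but their size depends on the exon length used. That length merges all annotated exons of a gene, and came to 1570 bases for Ldhb and 3310 bases for Ldha. By CPM, without division by length, Ldha lay above Ldhb in EOM too. The shares are therefore compared between the muscles, and do not settle which form prevailed within one. The pairs were chosen after values were seen, so their shares are given as a description. Ldhb held 60.2 ± 0.800% of the lactate dehydrogenase pair per kilobase in EOM and 6.67 ± 1.39% in TA. Actn2 held 53.1 ± 2.32% of the alpha-actinin pair with Actn3 in EOM and 3.41 ± 0.523% in TA. Actc1 held 26.6 ± 0.0987% of the actin pair with Acta1 in EOM and 0.305 ± 0.0476% in TA, with the 4 EOM libraries between 26.5% and 26.8%. Tpm3 held 25.2 ± 1.34% against Tpm1 in EOM and 0.151 ± 0.0413% in TA. Casq2 held 12.0 ± 0.545% against Casq1 in EOM and 0.993 ± 0.0542% in TA. In the cytochrome oxidase, Cox8a held 9.65 ± 1.03% against the muscle form Cox8b in EOM and 2.56 ± 0.175% in TA, and Cox7a2 42.3 ± 0.897% against Cox7a1 in EOM and 28.0 ± 1.09% in TA. Among ribosomal proteins Rpl3 held 18.4 ± 0.933% against its muscle-restricted copy Rpl3l in EOM and 3.24 ± 0.299% in TA. In all 22 pairs compared, the muscles did not overlap in the share. Single genes did not overlap in 72.6% of those tested, and the pairs were picked with values known, so this count is no measure of the pairs.

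Mitochondrial and ribosomal genes show where scaling decides. With TMM 45 of 50 nuclear subunits of the respiratory chain were lower in EOM and 2 higher, with a median of −0.40; on library totals 2 were lower and 40 higher, with a median of 0.27. Cytosolic ribosomal proteins did likewise, with 33 of 39 lower and 1 higher under TMM and 2 and 32 on library totals. No direction is therefore given for either group. Some members kept their direction on both scales. Cox8a (log2FC 1.61 ± 0.08) and Cox6a1 (log2FC 1.11 ± 0.07), the forms of the oxidase outside muscle, and Rpl3 (log2FC 1.62 ± 0.08) were higher. Rpl3l was lower (log2FC −1.13 ± 0.05), and is among the 2 ribosomal protein genes still called lower on library totals. The 2 respiratory chain genes still called lower there are not singled out here. Of 32 genes of fatty acid use 13 were higher and 8 lower, beside 42.3% and 35.0% of all genes tested, with a median of 0.05. On library totals 28 were higher and 2 lower, with a median of 0.72. Pdk4, which shuts carbohydrate out of the mitochondrion in fasting muscle, averaged 117 ± 27.8 CPM in EOM and 621 ± 324 CPM in TA (log2FC −2.41 ± 0.30). Ucp3, the uncoupling protein of muscle, was lower (log2FC −2.27), and Ucp2, the form that macrophages and many other cells make, was higher (log2FC 3.63). Of the antioxidant genes 9 of 27 were higher and 11 lower (22 and 2 on library totals), beside 42.3% and 35.0% of all genes tested. At 2-fold or more 3 were higher and 2 lower. The 3 were the extracellular superoxide dismutase Sod3 (log2FC 3.65 ± 0.12), the glutathione transferase Gsta4 (log2FC 2.42 ± 0.22) and the mitochondrial transhydrogenase Nnt (log2FC 1.26 ± 0.07). The 2 were Nqo1, at 9.08 CPM per kilobase of exon in EOM and 23.2 in TA, and Txnrd2, at 3.34 in EOM and 7.12 in TA.

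**Figure D4:**
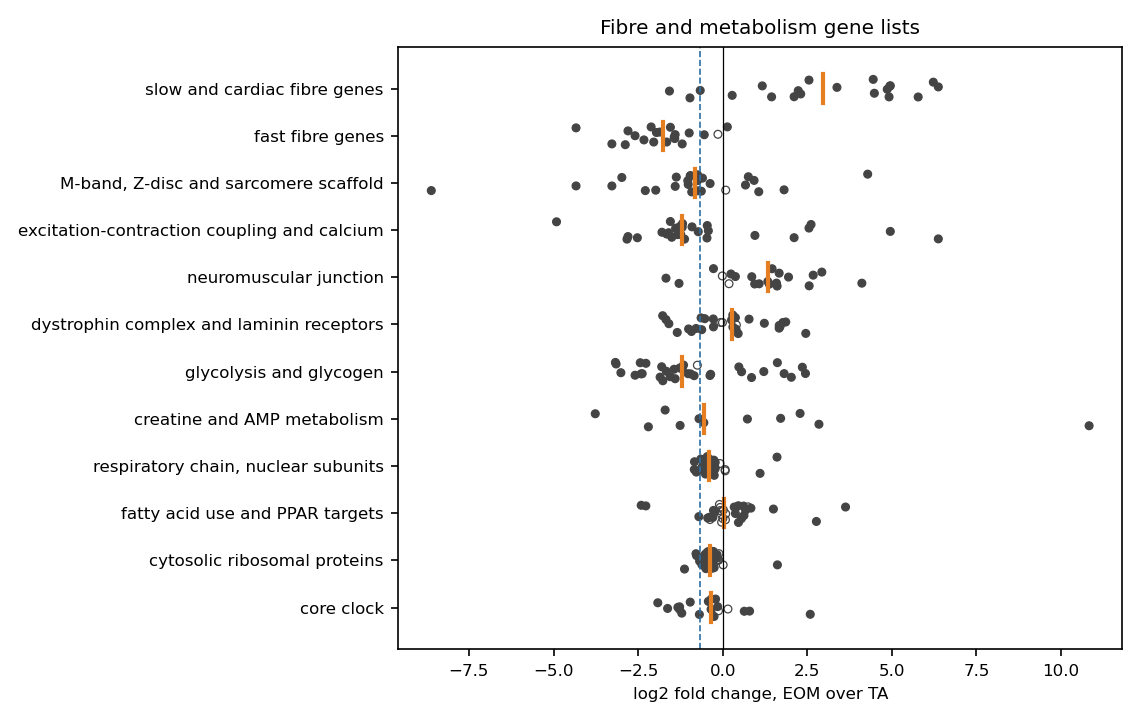
Log2 fold changes, EOM over TA, of the tested members of 12 gene lists, with filled points for genes called, open points for genes not called and an orange bar at each list's median. Slow and cardiac fibre genes (median 2.96) lie mostly right of 0 and fast fibre genes (−1.76) left; the dashed line at −0.67 is where 0 would lie on library totals, and most respiratory chain and ribosomal protein points fall between it and 0. The fitted fold of a gene with no count in TA, such as Ckmt1, the rightmost point, depends on the prior count.

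Genes of inherited muscle disease were called in both directions, in shares near those of all genes. In the list of the dystrophin complex and laminin receptors 14 of 29 were higher and 12 lower, against 42.3% and 35.0% of all genes tested; on library totals 20 were higher and 6 lower. Utrn, the dystrophin relative that can stand in for it at the membrane, read 143, 156, 127 and 144 CPM in EOM and 45.2, 45.1, 37.9 and 50.9 CPM in TA (log2FC 1.67 ± 0.09, adjusted p = 6.31e-09). Dmd, dystrophin, was higher (log2FC 0.46 ± 0.08), and Utrn held 43.2 ± 2.79% of the pair per kilobase in EOM and 24.7 ± 2.64% in TA. The genes of limb-girdle dystrophies Capn3, Ano5 and Dysf were lower (log2FC −1.77, −1.59 and −1.34), as was the sarcoglycan Sgca (log2FC −1.01). Epsilon-sarcoglycan, Sgce, which non-muscle cells also make, was higher (log2FC 1.86).

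Of the atrophy and growth restraint genes 9 of 22 were higher and 10 lower (12 and 6 on library totals), beside 42.3% and 35.0% of all genes tested. Trim63, the ubiquitin ligase MuRF1 that marks sarcomere proteins in wasting muscle, read 72.7, 102, 83.1 and 74.0 CPM in EOM and 325, 300.4, 462 and 315 CPM in TA (log2FC −2.08 ± 0.14). Fbxo32, the ligase atrogin-1, was lower (log2FC −1.35 ± 0.14). Fst, follistatin, which blocks myostatin and activins, was higher (log2FC 3.47 ± 0.16), at 24.8 CPM in EOM and 2.21 CPM in TA. The signalling mediator Smad3 was lower (log2FC −1.61).

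Growth signals were mostly higher in EOM. Of 17 genes of the insulin-like growth factor system 13 were higher and 3 lower, and 2 passed through EOM alone. Igf1, which drives muscle growth, read 92.4, 112, 102 and 104 CPM in EOM and 16.6, 29.0, 10.3 and 16.9 CPM in TA (log2FC 2.49 ± 0.22, adjusted p = 5.71e-07). The binding proteins Igfbp4 and Igfbp5 were higher (log2FC 2.83 and 1.29), and Igfbp2 was read in EOM alone (10.1 ± 1.93 CPM), at least 272-fold higher. Irs1, the insulin receptor substrate, was lower (log2FC −1.41) and its relative Irs2 higher (log2FC 1.87). Of the neurotrophic factors and receptors 14 of 21 were higher and 1 lower, and 5 passed through EOM alone. Ntrk2, the receptor of BDNF, read 40.1, 39.3, 39.9 and 38.6 CPM in EOM and 4.54, 6.28, 2.05 and 4.07 CPM in TA (log2FC 3.21 ± 0.21). Gfra1, the receptor that binds GDNF, was higher (log2FC 2.64), as was Gdnf itself (log2FC 2.08), at 3.11 CPM in EOM and 0.730 CPM in TA. The one member lower in EOM was Ntf5, a neurotrophin whose level in limb muscle follows activity, at 2.00 ± 0.0982 CPM in EOM and 10.1 ± 0.496 CPM in TA (log2FC −2.33 ± 0.13). Bdnf was not called (log2FC 0.32 ± 0.32, adjusted p = 0.371).

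Ligands, receptors and modulators of Wnt signalling were higher in 18 of 22 tested cases and lower in 2, and 6 passed through EOM alone. Sfrp2 and Sfrp1, decoys that bind Wnt proteins, averaged 12.9 and 14.8 CPM in EOM, against 0.841 and 1.63 CPM in TA. Frzb was higher (log2FC 2.21 ± 0.09), and the R-spondin receptor Lgr5 read 8.12, 6.81, 8.79 and 5.96 CPM in EOM and 0.101, 0.387, 0.332 and 0 CPM in TA. In the retinoic acid pathway Aldh1a2 and Aldh1a3, which make retinoic acid, were higher (log2FC 3.92 and 2.72). Aldh1a1, a further enzyme of that step, was lower, at 226 ± 20.6 CPM in EOM and 358 ± 28.3 CPM in TA (log2FC −0.67 ± 0.08), but on library totals it was not called (log2FC 0.01). The nuclear receptors Rxrg and Rxra were lower (log2FC −1.82 and −1.77). Of the ion channels listed the potassium channels Kcna1 (log2FC 3.15) and Kcnma1 (log2FC 2.57) were higher. The potassium channel Kcnc4 (log2FC −2.18) and the chloride channel Clcn1, the brake on repetitive firing (log2FC −1.22), were lower.

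The clock genes were compared with the time of collection unknown. Of 19 genes 14 were lower and 3 higher under TMM, and 7 and 11 on library totals, so the list as a whole has no settled direction. Npas2, an activator of the clock loop that passed the filter through EOM alone, averaged 1.69 CPM in EOM and 0.283 CPM in TA. Rora (log2FC −1.92) and Nfil3 (log2FC −1.63) were lower, as was Arntl, which encodes the activator BMAL1, at 3.98 ± 1.07 CPM in EOM and 9.94 ± 1.04 CPM in TA (log2FC −1.32 ± 0.18). The output factor Dbp was not called (log2FC −0.12 ± 0.08, adjusted p = 0.197).

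Cells other than muscle fibres left a larger mark in EOM. Of the tendon and fibroblast matrix genes 23 of 26 were higher and 1 lower (median 2.13), 2 through EOM alone, and of the small leucine-rich proteoglycans, which bind collagen fibrils, 12 of 12 (median 2.18). Dcn, decorin, read 2027, 1949.6, 2033 and 2077 CPM in EOM and 267, 345, 309.7 and 329 CPM in TA (log2FC 2.69 ± 0.08, adjusted p = 4.73e-11). Col3a1, the collagen of loose tissue, was higher (log2FC 2.85), as were Postn, periostin (log2FC 4.25), and Pdgfra, the receptor of muscle fibroblasts (log2FC 3.05). Tendon-cell genes were mixed, with Tnmd higher (log2FC 1.75) and Scx not called (log2FC −0.14 ± 0.27, adjusted p = 0.653). Of the macrophage and leukocyte genes 22 of 22 were higher and 0 lower, 5 through EOM alone. Summed, the fibroblast matrix list read 4652, 4286, 3748 and 3612 CPM in EOM and 927, 1131, 757 and 929 CPM in TA, and the leukocyte list 1015, 868, 956 and 809 CPM in EOM and 123, 135, 124 and 111 CPM in TA. The part of such cells in the counts of growth factor, Wnt, retinoic acid and antioxidant genes was not tested. Csf1r, the receptor macrophages depend on, averaged 62.5 ± 9.36 CPM in EOM and 5.38 ± 1.05 CPM in TA (log2FC 3.53 ± 0.14), and Mcpt4, a mast cell protease, averaged 22.8 CPM in EOM and 1.28 CPM in TA. Schwann cell genes were higher in 17 of 18 cases, 1 through EOM alone, led by Mal (log2FC 4.00), which some epithelia make too, and Cdh19 (log2FC 3.68).

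Vessels stood apart from these. Of 20 endothelial genes 8 were higher and 4 lower, with a median of 0.11. Over all genes tested 42.3% were higher and 35.0% lower, with a median of 0.10, so the share called higher was near that of any gene. Pecam1, the common marker of endothelium, was not called (113 CPM in EOM and 104 CPM in TA, log2FC 0.12 ± 0.06, adjusted p = 0.0787). On library totals 18 would be higher and 0 lower. Lyve1, a gene of lymphatic vessels that macrophages can carry too, read 70.3, 71.9, 74.1 and 60.8 CPM in EOM and 3.23, 3.38, 3.21 and 2.60 CPM in TA (log2FC 4.48 ± 0.10), the largest fold in the list. Apln, the peptide apelin, was higher (log2FC 2.44 ± 0.19), as was Prox1, a factor of lymphatic vessels (log2FC 2.13 ± 0.28). Of the adipocyte genes Adipoq (log2FC 1.94) and Cidec (log2FC 2.50) were higher, whereas Car3, an abundant carbonic anhydrase of fat and of slow muscle, was lower, at 246 ± 59.1 CPM in EOM and 4198 ± 825 CPM in TA (log2FC −4.09 ± 0.19).

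The EOM libraries also held transcripts known from the nose, from epithelia and from pigment cells, in amounts that differed between libraries. Omp, the marker of olfactory neurons, read 68.1, 15.4, 80.4 and 6.30 CPM in EOM 1 to 4 and at most 0.0895 CPM in TA. Summed over 12 olfactory neuron genes, a list added after the values were seen, the level was 207, 59.8, 257 and 30.3 CPM in EOM and 4.85, 3.92, 4.09 and 3.00 CPM in TA. EOM 1 and EOM 3 were thus high and EOM 2 and EOM 4 low. A list of 10 genes of nasal glands and odorant-binding proteins, likewise added afterwards, summed to 2370, 205, 374 and 326 CPM in EOM and at most 0.387 CPM in TA, with EOM 1 far above the rest. Bpifb9b, of a family of secreted airway and gland proteins, made up much of this, with 1114, 97.2, 58.6 and 144 CPM in EOM. An alternative test, limma voom, did not call Bpifb9a, Bpifb9b, Cyp2g1, Krt15, Mup4, Obp1a, Obp2b or Omp, at adjusted p between 0.0528 and 0.191, although its log2FC for them lay between 8.72 and 11.81. Keratins followed another order. Krt15, a keratin of the basal layer of epithelia such as the conjunctiva, read 47.4, 278, 174 and 371 CPM in EOM and 1.01, 0, 0.442 and 0.850 CPM in TA, lowest in EOM 1 and highest in EOM 4. The epithelium list summed to 212, 1075, 668 and 1338 CPM in EOM and 13.9, 13.2, 15.2 and 13.9 CPM in TA; 18 of its 21 tested members passed the filter through EOM alone. Pigment cell genes were read as well, with Dct at 16.6, 10.9, 9.80 and 13.1 CPM in EOM and at most 0.0967 CPM in TA, while photoreceptor genes such as Rcvrn and Crx had no count in any library. Of 18 lacrimal and Harderian gland genes listed 6 reached the filter, 5 of them through EOM alone. That list summed to 161, 90.6, 120 and 116 CPM in EOM and 6.6, 3.4, 4.5 and 4.4 CPM in TA.

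Neuronal transcripts carry the same variation in part. Of the 17 neuron and synapse genes tested 13 passed through EOM alone, and the list summed to 145, 94.1, 166 and 73.5 CPM in EOM and 16.1, 13.9, 15.8 and 16.9 CPM in TA. Snap25, part of the machinery that releases transmitter, was at 16.4, 10.9, 26.5 and 4.74 CPM in EOM and 0 in TA, high where Omp was high. Th, the enzyme of sympathetic nerve fibres, read 7.04, 7.49, 9.23 and 7.37 CPM in EOM and 0.202, 0, 0.111 and 0.0895 CPM in TA, and Nefm, a neurofilament of axons, 10.4, 8.81, 6.77 and 9.70 CPM in EOM and 0, 0.0967, 0 and 0.0895 CPM in TA; neither followed Omp across the EOM libraries. The part that cells of such tissues have in the counts of neuronal, gland or epithelial genes was not tested. Genes of muscle fibres varied far less between the EOM libraries: the highest EOM library was 1.16 times the lowest for Actc1, 1.30 times for Myh3 and 1.20 times for Chrna1, against 12.8 times for Omp, 19.01 times for Bpifb9b and 7.82 times for Krt15.

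**Figure D5:**
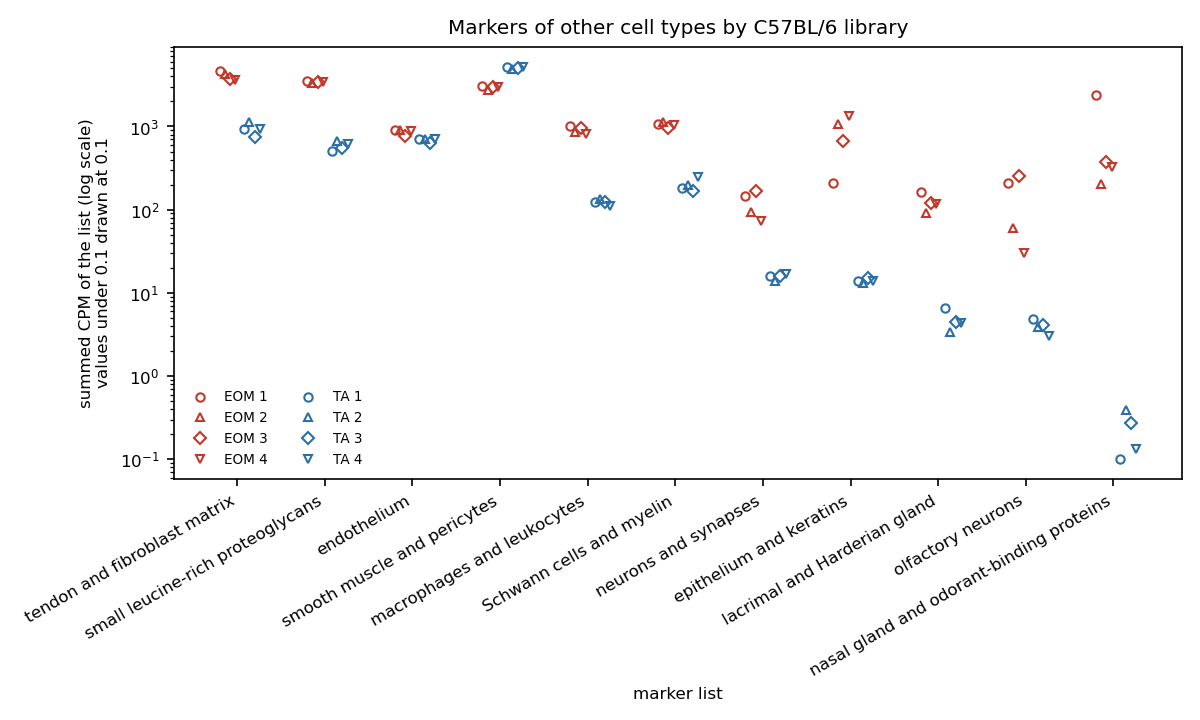
Summed CPM per library, on a log axis, of 11 marker lists of cells other than muscle fibres, with EOM libraries in red left of TA libraries in blue and a marker shape for each replicate. Fibroblast, leukocyte and Schwann cell sums are tight within EOM and above TA, endothelial sums are close in both muscles, and the epithelial, olfactory and nasal sums spread widely between EOM libraries; the smooth muscle sum is led by Des, which muscle fibres make.

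The genes with the largest log2FC in either direction, at a mean of at least 5 CPM over the 8 libraries, came from several of these groups. The order rests on the fitted fold, which depends on the prior count where a muscle has no count. Among the 15 largest increases were Obp1a, Obp2b, Mup4 and Cyp2g1, genes of odorant binding or of the olfactory lining, the secreted Bpifa6, Bpifb9a, Bpifb9b and Bpifb4, the keratins Krt6a and Krt14, and Snap25, all of which read at most 0.111 CPM in any TA library, beside Myh15, Mybphl, Psapl1 and Fstl5. Fstl5 read 21.4, 3.83, 36.6 and 3.37 CPM in EOM, in the same order of libraries as Omp. Among the 15 largest decreases were 4 Hox genes, Lbx1, Sim1, Myom2, Cacng1, Prkag3 and Smyd2. Smyd2, like Myh15 among the increases, is a marker given with the choice of these libraries. Cyp4f39, of a family of fatty acid hydroxylases, read 0.130, 0.0852, 0.135 and 0.0370 CPM in EOM and 47.5, 42.8, 39.1 and 42.3 CPM in TA. Igfn1, an immunoglobulin-domain protein of skeletal muscle, averaged 0.334 CPM in EOM and 62.6 CPM in TA. Mss51, a mitochondrial protein of fast glycolytic muscle, averaged 2.78 CPM in EOM and 81.4 CPM in TA (log2FC −4.87 ± 0.22). Amhr2, the receptor of anti-Müllerian hormone, averaged 0.108 CPM in EOM and 13.1 CPM in TA.

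By the amount of RNA that changed, the order was another. Among the 15 largest gains in CPM in EOM were Myh13, Myh3, Actc1, Gsn, Ckmt2, Dcn, Igfbp5, Myh15, Mb, Eef1a1, Tpm3, Myh2, Fhl1 and Col3a1. Gsn, the actin-severing gelsolin, read 3035, 2563, 2395 and 2889 CPM in EOM and 697, 815, 589 and 838 CPM in TA (log2FC 1.89 ± 0.11). Fhl1, a LIM protein of muscle growth, averaged 1629.6 ± 32.2 CPM in EOM and 756 ± 112 CPM in TA (log2FC 1.11 ± 0.09). Eef1a1, the common elongation factor that muscle replaces with Eef1a2, was higher (log2FC 2.18 ± 0.05), although its many copies in the genome make its counts uncertain. The largest losses fell on Myh4, Acta1, Tpm1, Atp2a1, Aldoa, Tnnt3, Pvalb, Actn3, Ckm, Tnnc2, Mylpf, Tnni2, Myl1, Pygm and Ttn, all genes of fibre contraction or its fuel. Acta1, skeletal actin, averaged 5698 ± 410.2 CPM in EOM and 30872 ± 577 CPM in TA (log2FC −2.44 ± 0.06).

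Replicates varied more in EOM than in TA by one measure and not by another. The biological coefficient of variation that edgeR estimated within each muscle was 0.164 in EOM and 0.0933 in TA, while the median SD of log2 CPM over genes tested was 0.143 and 0.151. Correlations of log2 CPM across genes, which are not independent replicates, ran from 0.978 to 0.990 between EOM libraries, from 0.986 to 0.989 between TA libraries and from 0.847 to 0.870 between the muscles.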

How the data were processed

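The deposited table of the authors holds whole-number read counts per gene for 24421 genes in 32 libraries, of which 4 C57BL/6 EOM and 4 C57BL/6 TA libraries were used. Per the submitters' processing notes, reads were handled with Trimmomatic 0.33, FastQC, HISAT2 2.1.0, featureCounts and edgeR on mm10; their order, the annotation and the strand setting are not given in the sources used here. Where strand was not used in counting, overlapping and antisense genes cannot be told apart. The table gives 27 genes under date-like names, which hold at most 0.156% of a library and stayed in its total. Library totals of 18544334 to 27965207 counts set the precision, and floors of 3 counts cover counting error only.

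Genes were kept by filterByExpr (a CPM of about 0.421 in at least 4 libraries), scaled by TMM and compared, EOM over TA, with edgeR 4.0.16 (quasi-likelihood F test, Benjamini-Hochberg over the 14408 genes tested, call at an adjusted p under 0.05; R 4.3.3). A fold is the fitted one, with the default prior count, and its standard error is the log2 fold change divided by the root of F. Shares and other single values were compared by exact two-sided permutation tests (SciPy 1.17.1, Python 3.11.15). Exon lengths, merged over all annotated exons of a gene, came from GENCODE on GRCm38 for 98.38% of symbols, and promoter windows from RefSeq. The fit was tested on simulated counts for EOM versus TA (14263 genes): it recovered 62.1% of genes changed 1.5-fold, 73.1% at 2-fold and 98.5% at 4-fold, with 9 false calls. Both simulated muscles shared 1 mean profile, apart from 66, 67 and 65 genes changed at these folds in random directions. False calls where most genes differ and the scaling factors differ between the muscles, as in the real libraries, were therefore not tested.

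The comparison, its genes and 40 gene lists were chosen with earlier results of these data known; 2 further lists and the gene pairs were added after the values were seen. Named are the 15 called genes per direction with the largest log2 fold change (mean of at least 5 CPM, no overlap, no model number as a symbol), the 15 with the largest difference in mean CPM, up to 8 members of each list by size of log2 fold change with any member the account needs, and the markers. A few genes that this rule selects are not reported here. Alternatives were other scalings (one, library totals, added after the data were seen), filters, DESeq2 1.42.0, limma 3.58.1 voom, a test against a 1.5-fold change, all 16 C57BL/6 libraries in 1 fit, a block for the replicate number, offsets for GC content and exon length, and leaving out each library.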

Additional observations from a re-analysis of the deposited data

Results flagged for a closer look

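In 47 of the 446 groups of 4 libraries examined, over the named genes, list sums, heavy chain shares and library measures, 1 library lay far from the other three. Chance gives such a distance in about 1 in 20 groups. No explanation was tested for any of them.

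EOM 1 was highest for Bpifa6, Bpifb9a, Bpifb9b, Cox8a, Mup4, Obp2b and Psapl1. Bpifa6 was at 85.8 CPM, against 38.7 to 44.5 CPM in the others, and Bpifb9a was at 628 CPM, against 29.8 to 73.6 CPM. Bpifb9b was at 1114 CPM, against 58.6 to 144 CPM, and Cox8a was at 75.6 CPM, against 64.7 to 66.4 CPM. Mup4 was at 154 CPM, against 8.94 to 28.7 CPM, and Obp2b was at 78.4 CPM, against 1.06 to 10.2 CPM. Psapl1 was at 20.1 CPM, against 10.1 to 11.7 CPM. EOM 1 was lowest for Dmd, at 235 CPM, against 269 to 271 CPM in the others. EOM 3 was highest for Myh7b, Pdgfra and Ryr3. Myh7b was at 25.9 CPM, against 15.4 to 16.9 CPM in the others, and Pdgfra was at 119 CPM, against 110.4 to 112 CPM. Ryr3 was at 7.28 CPM, against 3.23 to 3.41 CPM. EOM 3 was lowest for Acta1, Actc1, Pecam1, Ryr1 and Stim1. Acta1 was at 5086 CPM, against 5858 to 5958 CPM in the others, and Actc1 was at 1956 CPM, against 2235 to 2264 CPM. Pecam1 was at 103 CPM, against 116 to 117 CPM, and Ryr1 was at 1513 CPM, against 1802 to 1849 CPM. Stim1 was at 570.3 CPM, against 629 to 633 CPM. EOM 4 was highest for Adipoq, Car3, Cidec, Hoxc10, Phka1 and Tbx15. Adipoq was at 45.5 CPM, against 25.4 to 28.3 CPM in the others, and Car3 was at 334 CPM, against 207 to 228 CPM. Cidec was at 32.6 CPM, against 21.2 to 22.8 CPM, and Hoxc10 was at 0.0741 CPM, against 0. Phka1 was at 222 CPM, against 203 to 204 CPM, and Tbx15 was at 855 CPM, against 765 to 773 CPM. EOM 4 was lowest for Myh15 and Postn. Myh15 was at 1306 CPM, against 1581 to 1629 CPM in the others, and Postn was at 192 CPM, against 214 to 218 CPM.

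TA 1 was lowest for Eya1, at 35.7 CPM, against 42.1 to 42.3 CPM in the others. TA 2 was highest for Cox7a1 and Dct. Cox7a1 was at 473 CPM, against 413 to 421 CPM in the others, and Dct was at 0.0967 CPM, against 0. TA 2 was lowest for Actn3 and Lmod2. Actn3 was at 12358 CPM, against 14016 to 14246 CPM in the others, and Lmod2 was at 144 CPM, against 178 to 181 CPM. TA 3 was highest for Trim63, at 462 CPM, against 300.4 to 325 CPM in the others. TA 3 was lowest for Chrng and Lbx1. Chrng was at 0 CPM, against 0.0895 to 0.101 CPM in the others, and Lbx1 was at 17.7 CPM, against 22.6 to 23.2 CPM. TA 4 was highest for Aldh1a1, Mss51, Omp and Ryr3. Aldh1a1 was at 400.1 CPM, against 341 to 351 CPM in the others, and Mss51 was at 106 CPM, against 72.3 to 75.1 CPM. Omp was at 0.0895 CPM, against 0, and Ryr3 was at 1.43 CPM, against 0.404 to 0.483 CPM. TA 4 was lowest for Actc1, Car3 and Myl1. Actc1 was at 75.2 CPM, against 105 to 109.8 CPM in the others, and Car3 was at 2969 CPM, against 4472 to 4686 CPM. Myl1 was at 12904 CPM, against 14766 to 14871 CPM. The values of Hoxc10, Dct, Omp and Chrng printed here as the extremes rest on 2 counts or fewer in a library.

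Counts of Rn45s, the precursor of ribosomal RNA, made up 1.31% of the total in EOM 3, against 0.130% to 0.264% in the other EOM libraries. The summed level of the endothelium list was lowest in TA 3, at 638 CPM against 708 to 717 CPM in the other libraries of that muscle. The summed level of the blood cells list was highest in TA 2, at 39.0 CPM against 5.91 to 9.54 CPM in the other libraries of that muscle. The summed level of the nasal gland and odorant-binding proteins list was highest in EOM 1, at 2370 CPM against 205 to 374 CPM in the other libraries of that muscle. Of the heavy chain pool per kilobase, Myh4 held 39.3% in EOM 4, against 36.6 to 37.0% in the other libraries of the muscle. Myh7 held 0.0151% in TA 1, against 0.00514 to 0.00653% in the other libraries of the muscle. Myh7b held 0.107% in EOM 3, against 0.0584 to 0.0644% in the other libraries of the muscle. Myh8 held 1.43% in EOM 4, against 1.496 to 1.508% in the other libraries of the muscle.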

How the results depend on the processing

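Between 10432 and 12356 genes were called under every alternative run except the test against a 1.5-fold change, which called 6492, 4329 higher and 2163 lower, by its construction. Leaving out 1 library at a time gave 10870 to 11243 calls, with 10971 without EOM 1, where nasal gland transcripts were highest. Scaling mattered most. Upper quartile factors moved the median of all genes by 0.109 on the log2 scale and library totals by 0.673, relative to TMM. On library totals 10493 genes were called higher and 1594 lower, and at 2-fold or more 6113 higher and 381 lower, in place of 4014 and 1263.

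Of 204 named genes that were tested, 174 kept their direction and call in every alternative, 4 changed only on library totals and 26 elsewhere. On library totals the log2 fold change was above 0 for Aldh1a1 (0.0069), Cox8b (0.27), Dbp (0.55), Ddx3y (0.53), Eya1 (0.53), Hoxd8 (0.10), Myh1 (0.13), Myl3 (0.0084) and Rapsn (0.66), in place of below 0. Called higher minus called lower turned from negative to positive there for the respiratory chain (38), ribosomal protein (30), antioxidant (20), atrophy (6), clock (4) and creatine and AMP (1) lists. The antioxidant list also turned with upper quartile factors (4) and the 1.5-fold test (2); these turns follow from the shift in scale or the smaller number of calls. For the sex-linked list the same difference was −1 with GC content and length offsets and ran from −1 to 1 over the libraries left out; the cause was not tested.

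Shares of counts not divided by exon length differed between EOM and TA by 1.34 percentage points for Myh7 and 1.66 for Myh8, the part of length being the construction of that alternative. A block for the replicate number called 11331 genes, against 11126 without it; same-numbered EOM and TA libraries correlated at −0.00577 to 0.113 in their deviations from the group means, and EOM 1 correlated best with TA 2, so the numbers were not taken as pairs. Dok7 and Pecam1 were called higher in 4 and 5 alternatives. Depth limits genes below about 0.421 CPM, which were not tested.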
